A study of Mus musculus with 2 samples.

Results

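In droplet single-cell RNA sequencing of sorted mouse lung epithelial cells, 199 of 19152 cells were high in both Sftpc and Scgb1a1. Cells were barcodes with at least 2000 unique molecular identifiers (UMIs, each counting 1 captured RNA molecule), at least 500 detected genes and at most 20% mitochondrial UMIs. Double-high cells were those in which Sftpc took at least 10% and Scgb1a1 at least 3% of the UMIs. They were set against alveolar type 2 (AT2) cells, defined by Sftpc of at least 15% with Scgb1a1 under 1%, and against club cells, defined by Scgb1a1 of at least 20% with Sftpc under 10%. There were 2 libraries, 1 per group. The tumor-bearing library came from wild-type C57BL/6 lung after 1000000 luciferase-labelled LLC cells, a Lewis lung carcinoma line, had been injected under the skin of the back, with the lungs taken on day 14. The control library came from untreated wild-type C57BL/6 lung. Neither age nor the number of mice behind each library was given. Both samples had been sorted for CD45-negative, SftpC-positive cells to a stated purity above 95%, so the sort itself selected on the protein of a gene that defines the cells. Each group is a single library, which leaves nothing to test between mice, and all intervals are exact 95% intervals of counting error within a library.

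AT2 cells line the alveoli, make surfactant, and are marked by Sftpc, which encodes surfactant protein C. Club cells line the bronchioles and are marked by the secretoglobin Scgb1a1 and the cytochrome P450 Cyp2f2. In mice, cells at the junction of the terminal bronchiole and the alveolar duct that carry both markers are known as bronchioalveolar stem cells and can give rise to either lineage after injury. A droplet that holds an AT2 cell together with a club cell, or an AT2 cell with free club RNA, also yields both markers. Mouse AT2 cells are also known to carry major histocompatibility complex (MHC) class II, which presents peptides from outside the cell to CD4+ T cells.

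The tumor-bearing library held 84448360 UMIs and 8165 cells, and the control library 91498124 UMIs and 10987 cells. Of the cells passing the filters, 128 barcodes occurred in both libraries, and none of these was double-high in both. Among double-high barcodes, 1 of the tumor-bearing library occurred among control cells and 2 of the control library among tumor-bearing cells. Double-high cells numbered 82 in the tumor-bearing library (1.00%, interval 0.7995 to 1.25%) and 117 in the control library (1.06%, interval 0.882 to 1.28%). AT2 cells numbered 6436 and 9673, and club cells 281 and 63. For each 100 club cells there were 29.2 double-high cells in the tumor-bearing library, against 185.7 in the control. Among all cells with at least 10% Sftpc, double-high cells made up 1.20% (0.955 to 1.49%) of the tumor-bearing and 1.15% (0.953 to 1.38%) of control cells. The intervals of the double-high shares overlapped between the libraries, while club cells were 3.44% (3.06 to 3.86%) of tumor-bearing and 0.573% (0.441 to 0.733%) of control cells.

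Shares of Sftpc and Scgb1a1 chose the cells and are given as a description. Sftpc ranged from 10.2% to 38.8% of UMIs in double-high cells of the tumor-bearing library, with a median of 23.1%, against medians of 26.7% in AT2 and 1.40% in club cells. In control double-high cells it ranged from 10.1% to 32.9%, with a median of 24.8%, against 26.5% in AT2 and 1.90% in club cells. Scgb1a1 had a median of 4.51% in tumor-bearing and 4.42% in control double-high cells, and reached 40.1% and 40.8%. AT2 cells had medians of 0.508% and 0.134%, and club cells of 60.9% and 57.2%. The cells just inside the Scgb1a1 minimum had 3.05% and 3.02%, and those just outside had 2.98% and 2.99%. For Sftpc the nearest cells inside had 10.2% and 10.1%, and those outside 9.32% and 9.22%. Most double-high cells lay near the lower bound of Scgb1a1. In the tumor-bearing library 46 had 3 to under 5%, 16 had 5 to under 10% and 20 had 10% or more, and in the control library 76, 27 and 14.

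**Figure D1:**
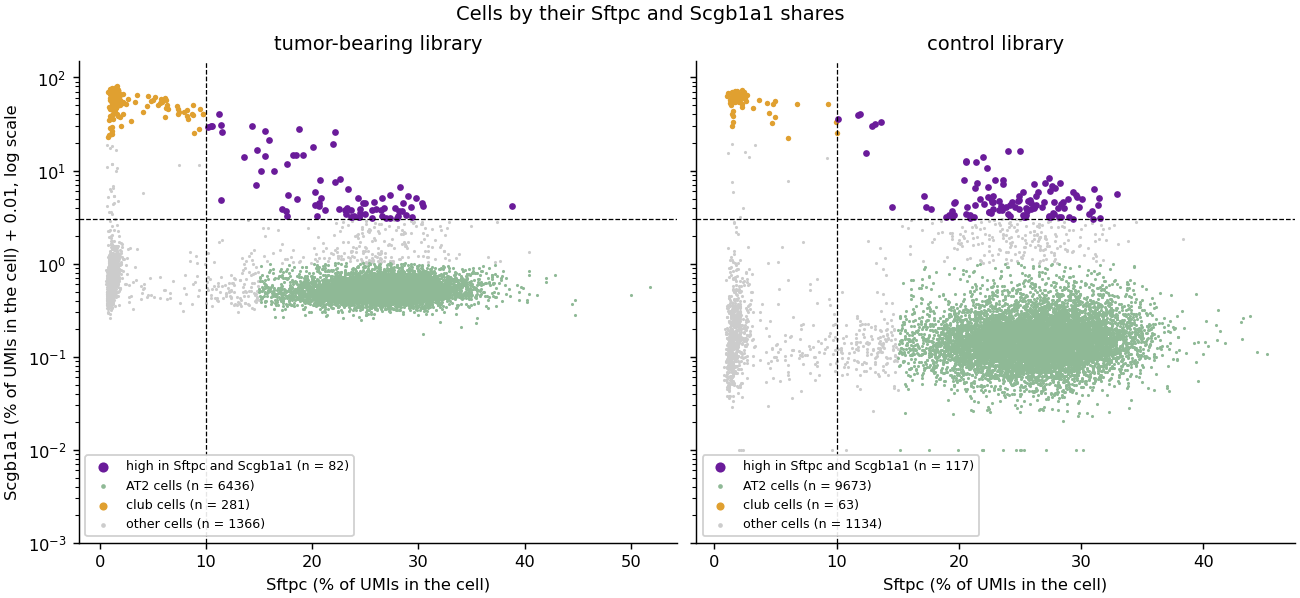
Share of UMIs from Sftpc (horizontal axis, %) and from Scgb1a1 (vertical axis, %, log scale, with 0.01 added) in each cell of the tumor-bearing (left) and control (right) library, 1 point per cell coloured by class. Dashed lines mark the minimum of 10% Sftpc and 3% Scgb1a1; most of the 82 and 117 double-high cells lie just above the AT2 cells, with under 10% Scgb1a1.

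Cells at the upper and the lower end of the Scgb1a1 range differed in size and doublet score. Median UMIs were 10532 in tumor-bearing double-high cells, against 8983 in AT2 and 23502 in club cells, and 7102 in control double-high cells, against 6933 in AT2 and 12402 in club cells. With Scgb1a1 under 10% the medians were 9420 and 7020, and with 10% or more 17204 and 8092. UMI totals above 2 times the AT2 median occurred in 3 of 62 tumor-bearing and 2 of 103 control cells with under 10% Scgb1a1, in 8 of 20 and 3 of 14 cells with 10% or more, and in 2.41% and 2.66% of AT2 cells. Scrublet, which scores a cell by its likeness to simulated doublets, placed 1 of 62 and 2 of 103 of the cells with under 10% Scgb1a1 among the highest-scoring cells. It placed 9 of 20 and 4 of 14 of those with 10% or more there, as well as 6.88% and 9.19% of AT2 cells. When every cell was thinned to 2000 UMIs, the median number of genes was 653.5 in tumor-bearing and 671 in control double-high cells, against 704 and 724 in AT2 and 434 and 454 in club cells. A droplet that joins the median AT2 cell to the median club cell would have 44.2% Scgb1a1 and 32485 UMIs in the tumor-bearing and 36.8% and 19335 UMIs in the control library. Its Sftpc share would be 8.40% in the tumor-bearing library, under the 10% minimum for double-high cells, and 10.7% in the control.

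Free RNA was followed through empty droplets (1 to 100 UMIs), in which Scgb1a1 took 11.43% of UMIs in the tumor-bearing library, against 1.40% in the control. If the red-cell genes of double-high cells all came from such RNA, it would make up 2.36% and 3.36% of their UMIs and bring 0.270% and 0.0471% Scgb1a1, where 12.3% and 7.70% were seen over the summed cells. Endothelial genes, taken the same way, gave a larger share of 30.4% and 25.5%, which would bring 3.47% and 0.359% Scgb1a1. In the cells with under 10% Scgb1a1, where 4.63% and 4.53% were seen, the endothelial genes would bring 3.06% (up to 3.54%) and 0.376% (up to 0.516%). In tumor-bearing cells with 3 to under 5% the platelet genes, at 6 UMIs, would bring 3.86% (up to 8.40%), where 3.70% was seen, and in the same range of the control library 0.310% (up to 0.611%), where 3.89% was seen. In tumor-bearing AT2 cells the platelet genes would bring 8.70%. In AT2 cells the red-cell genes gave 0.515% and 0.295% Scgb1a1 and the endothelial genes 3.17% and 0.548%, where 0.518% and 0.158% were seen. Other lineages also yielded cells that carried their genes beside Sftpc of at least 10%. At 0.15 times the lineage's own median level there were 13.9 and 23.2 such cells for each 100 ciliated cells, 24.7 and 33.3 for each 100 endothelial cells, and 62.3 and 63.8 for each 100 alveolar type 1 cells. For fibroblasts, 45 cells in the tumor-bearing library, there were 149 for each 100. For club cells there were 7.83 and 22.2 for each 100. At that level of Scgb1a1, 22 of 82 and 14 of 117 double-high cells remained. How much mixed droplets and free RNA contributed to the double-high cells was not tested.

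Against AT2 cells, double-high cells of both libraries were higher in airway secretory genes and in Cd24a and lower in MHC class II genes. A gene was called where it reached 50 counts per 1000000 UMIs (CPM) in either class, differed at least 2-fold with a pseudocount of 1 CPM, and had separate Poisson intervals. In the tumor-bearing library 25 of 1764 genes were called higher (1.42%) and 20 lower (1.13%), and in the control library 18 of 1803 were higher (0.998%) and 24 lower (1.33%). The median log2 ratio of all genes of at least 20 CPM was -0.16 and -0.17. Without Sftpc and Scgb1a1 in the totals the split was 37 higher and 17 lower in the tumor-bearing and 29 and 25 in the control library, and with median-of-ratios scaling 32 and 9, and 22 and 15. In the first scaling, 11 genes were higher and 11 lower in both libraries, and none was called in opposite directions. In the cells with under 10% Scgb1a1, a range chosen after seeing the data, 16 of 1787 genes were higher (0.895%) and 22 lower (1.23%) in the tumor-bearing library, and 15 of 1826 higher (0.821%) and 21 lower (1.15%) in the control library. There 8 genes were higher in both libraries, namely Gsta3, Creb3l1, Bpifa1, Cyp2f2, Cd24a, Hp, Scgb3a1 and Scgb3a2, and 10 were lower in both. Bpifa1 and Scgb3a1 belong to a list of proximal airway secretory genes that a minority of these cells carried. Per cell with under 10% Scgb1a1, the list had a median of 0% of UMIs in each library. The highest tumor-bearing cell of this range had 1.55%, and the highest control cell 1.10%. Creb3l1, a transcription factor of the endoplasmic reticulum, was named after its values were seen. Because the classes were cut from the same cells on Sftpc and Scgb1a1, these calls describe the classes and are not tests.

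**Figure D2:**
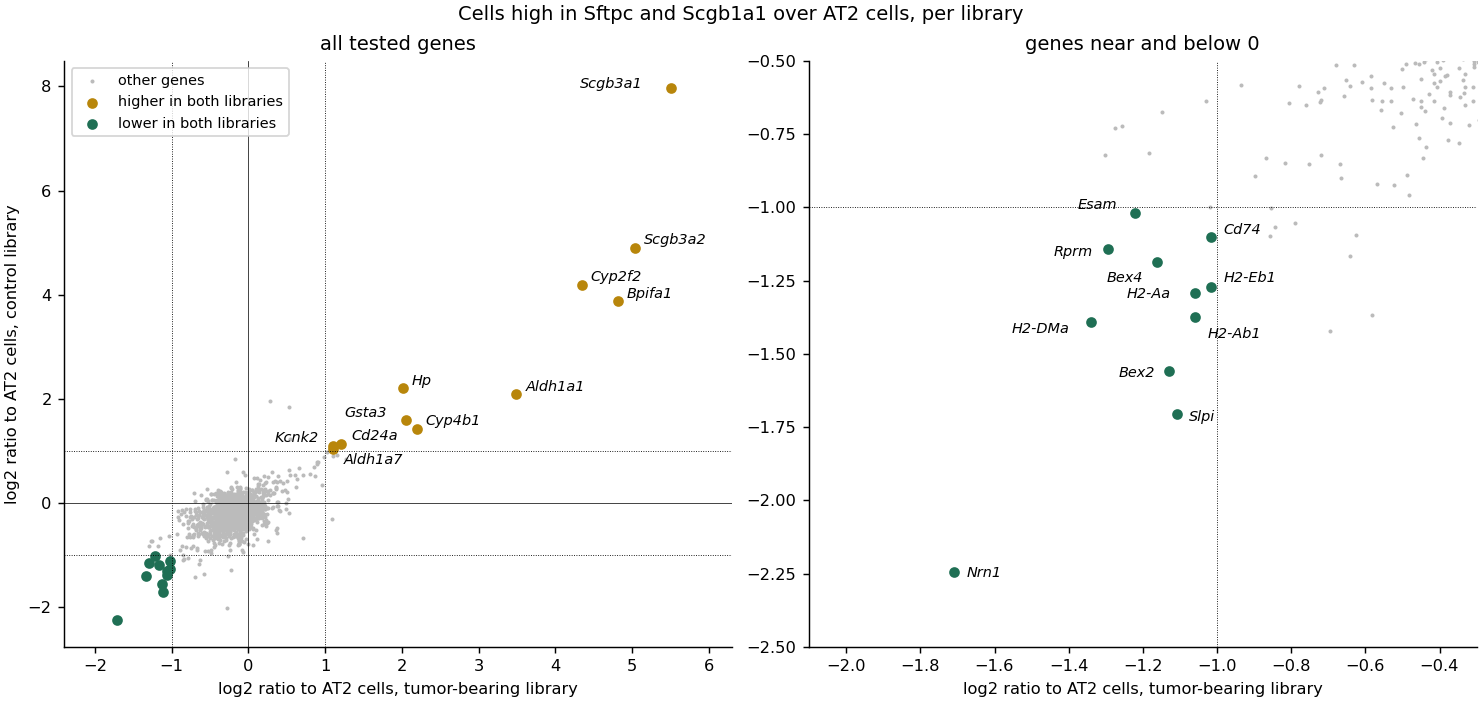
Log2 ratio of double-high over AT2 cells in the tumor-bearing (horizontal) and control (vertical) library, 1 point per gene that reached the 50 CPM minimum in both libraries, with a pseudocount of 1 CPM. The left panel names the 11 genes called higher in both libraries and the right panel enlarges and names the 11 called lower, which include genes shown only here; dotted lines mark 2-fold.

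Among airway genes, Cyp2f2 (chromosome 7, 27119909 to 27133660, plus strand, mm10), which oxidises foreign compounds, was called above AT2 cells in both libraries. It stood at 1230 CPM in tumor-bearing double-high cells, against 59.6 CPM in AT2 and 5041 CPM in club cells, a fold of 20.6 over AT2 cells (19.3 to 22). In the control library it stood at 795.7 CPM in double-high cells, against 42.6 CPM in AT2 and 5000 CPM in club cells, a fold of 18.7 over AT2 cells (17.2 to 20.3). At least 1 Cyp2f2 UMI was found in 81 of 82 tumor-bearing double-high cells (98.8%, 93.4 to 100%), against 35.5% of AT2 cells, and in 86.3% of the 117 control double-high cells (78.7 to 92.0%), against 19.7% of AT2 cells. After thinning to 2000 UMIs these shares were 65.9% and 55.6% in double-high cells, against 9.50% and 6.4% in AT2 cells. Endothelial cells, which should lack Cyp2f2, had a UMI in 15.2% and 6.94% of cells at median depths of 3116 and 2706 UMIs, and in 9.14% and 5.56% after thinning. The share of cells with Cyp2f2 was higher in double-high cells than in AT2 and endothelial cells, before and after thinning. Ciliated cells of these libraries also had Cyp2f2, at 2369 and 1711 CPM, and no double-high cell had ciliated genes at 0.15 times the ciliated median.

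Hp (chromosome 8, 109575128 to 109579172, minus strand), which encodes haptoglobin, a haemoglobin-binding protein, stood at 1291 CPM in tumor-bearing double-high cells, against 319.5 CPM in AT2 and 4457 CPM in club cells. The control library had 1212 CPM in double-high cells, against 262.5 CPM in AT2 and 4509 CPM in club cells. The folds over AT2 cells were 4.04 (3.82 to 4.27) and 4.62 (4.34 to 4.91). All 82 tumor-bearing and 111 of 117 control double-high cells had an Hp UMI, against 82.4% and 71.1% of AT2 cells. Scgb3a2, a secretoglobin of the bronchioles, was spread unevenly: it was detected in 38 of 82 tumor-bearing and 18 of 117 control cells, and the top cell held 26.0% and 47.4% of its UMIs. Every cell with Scgb3a2 also had Cyp2f2, while 43 tumor-bearing and 83 control cells had Cyp2f2 without Scgb3a2. In the 3 to under 5% range of Scgb1a1, 14 of 46 tumor-bearing cells had a Scgb3a2 UMI (30.4%, 17.7 to 45.8%), against 27.3% of AT2 cells and 19.0% of endothelial cells, so the gene was not detectable above background there. Of the 76 such control cells, 6 did (7.89%, 2.95 to 16.4%), against 5.17% of AT2 and 1.39% of endothelial cells. Cyp2f2 and Hp were detected in most double-high cells of both libraries, and Scgb3a2 in a minority.

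Of the club identity list, 13 genes reached 20 CPM in either class in the tumor-bearing library and 10 did so in the control. All of them were above their AT2 level. Genes such as Aldh1a1 reached 20 CPM in double-high but not in AT2 cells. For such genes the direction follows from the filter, which also bears on the list median. In each library 6 genes of the list were called higher. The median log2 ratio was 2.90 and 1.34, against -0.16 and -0.17 over all genes, and in the cells with under 10% Scgb1a1 it was 1.32 and 0.96, with 3 and 5 genes called. The glutathione transferase Gsta3 stood at 117 CPM in tumor-bearing double-high cells, against 27.5 CPM in AT2 cells, and at 142.3 CPM in control double-high cells, against 46.7 CPM in AT2 cells. The retinaldehyde dehydrogenase Aldh1a1 stood at 144.5 CPM in tumor-bearing double-high cells, against 11.9 CPM in AT2 cells, and at 54.9 CPM in control double-high cells, against 12.1 CPM in AT2 cells. In cells with 3 to under 5% Scgb1a1, Aldh1a1 stood at 32.3 CPM in the tumor-bearing and 12.6 CPM in the control library. With 10% or more it stood at 306.8 and 221.3 CPM. With under 10% Scgb1a1 it was not called in either library. The carbonyl reductase Cbr2 was abundant in every class, at 11036 and 11749 CPM in double-high cells, 9118 and 9909 CPM in AT2 cells and 14197 and 14670 CPM in club cells, and was not called. The broader xenobiotic metabolism list had 6 of 17 and 5 of 16 measured genes called higher and none lower, with median log2 ratios of 0.86 and 0.63. Of the proximal airway secretory list, 5 genes were measured and 3 called higher in each library, but these rested on few cells. In the control library the whole list summed to 17.0 CPM in AT2 cells, so every measured gene passed the filter through double-high cells. Scgb3a1, a secretoglobin of larger airways, was found in 15 tumor-bearing and 8 control cells, and the top cell held 74.2% and 87.9% of its UMIs. Bpifa1, an antimicrobial protein of the upper airway, was found in 14 and 2 cells, with 91.6% and 88.9% of its UMIs in the top cell. No gene of the goblet, basal or neuroendocrine lists reached 20 CPM.

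Transcripts of Cckar, the receptor for cholecystokinin (chromosome 5, 53697776 to 53707705, minus strand), lay further toward their club level than those of Cyp2f2. Cckar stood at 41.3 CPM in tumor-bearing double-high cells, against 4.66 CPM in AT2 and 65.7 CPM in club cells, and at 57.2 CPM in control double-high cells, against 6.06 CPM in AT2 and 71.6 CPM in club cells. Against AT2 cells Cckar was called in the control library, while in the tumor-bearing library it stayed below the minimum of 50 CPM for a call. It was found in 29 of 82 and 36 of 117 double-high cells, against 4.12% and 4.19% of AT2 cells and 0.183% and 1.39% of endothelial cells. On a scale where AT2 cells are at 0 and club cells at 100, cells with 3 to under 5% Scgb1a1 were at 5.43 for Scgb1a1, 7.75 for Cyp2f2, -0.04 for Scgb3a2 and 45.3 (21.3 to 81.2) for Cckar in the tumor-bearing library. In the control library they were at 6.63 for Scgb1a1, 6.17 for Cyp2f2, 0.84 for Scgb3a2 and 73.0 (46.2 to 108) for Cckar. Scgb3a2 lay below Cyp2f2 on this scale and Cckar above it, while the place of Scgb1a1 follows from the rule. The Cckar positions rest on 14 UMIs in the tumor-bearing and 30 UMIs in the control library. Cells with 10% or more Scgb1a1 were at 41.9 for Scgb1a1, 46.8 for Cyp2f2 and 38.97 for Scgb3a2 in the tumor-bearing library, and at 43.6, 56.2 and 18.5 in the 14 such cells of the control library. Scgb1a1 takes most UMIs of club cells, which lowers the CPM of their other genes. With Sftpc and Scgb1a1 left out of the totals, Cckar stood at 61.2 CPM in tumor-bearing double-high, 6.36 CPM in AT2 and 169.9 CPM in club cells, and at 83.4, 8.22 and 174.6 CPM in the same classes of the control library, and it was then called lower than in club cells in both.

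**Figure D3:**
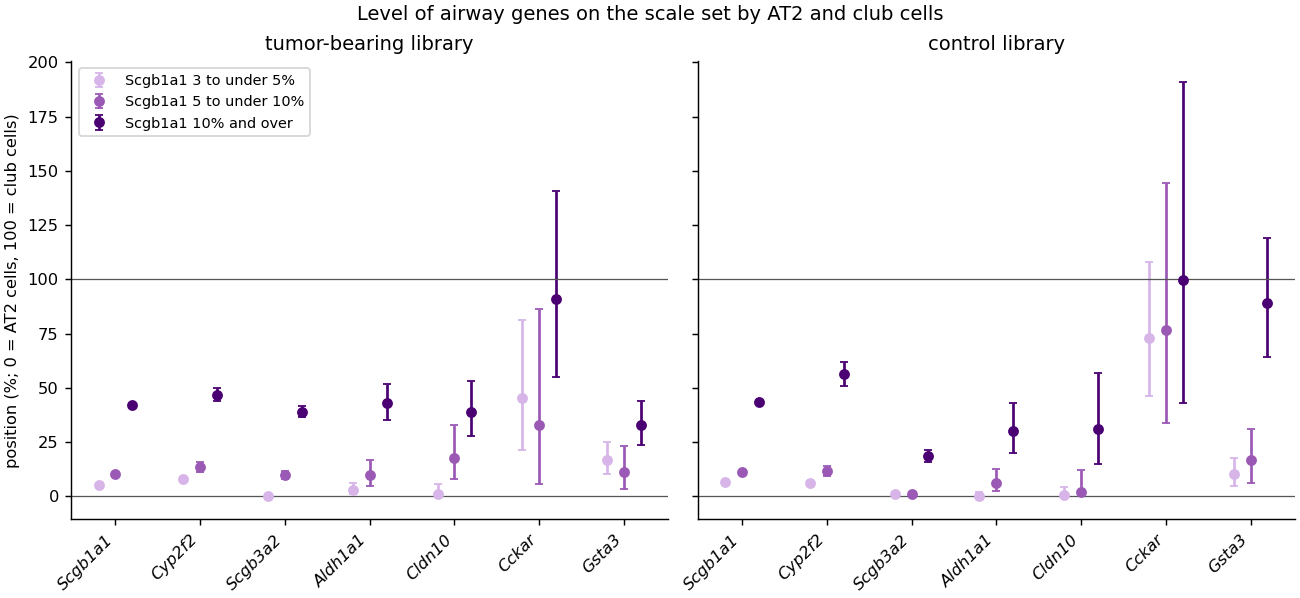
Position of airway genes (vertical axis, %; AT2 cells at 0 and club cells at 100) in double-high cells by range of Scgb1a1, in the tumor-bearing (left) and control (right) library, with 95% intervals from the counts of the double-high cells. In the lowest range Cyp2f2 lies near Scgb1a1, Scgb3a2 near 0, and Cckar at 45.3 and 73.0.

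Sox2, a transcription factor of the conducting airways, was named after its values were seen. It was measured by only 25 UMIs in 19 tumor-bearing and 20 UMIs in 18 control double-high cells, and stayed below the minimum of 50 CPM for a call. Its level was 24.6 CPM (15.9 to 36.3) in tumor-bearing double-high cells, against 0.779 CPM in AT2 and 25.6 CPM in club cells, and 22.4 CPM (13.7 to 34.6) in control double-high cells, against 0.457 CPM in AT2 and 30.03 CPM in club cells. In cells with under 10% Scgb1a1 it was 31.5 and 26.6 CPM. With 10% or more it was 13.1 CPM from 5 UMIs in 20 tumor-bearing cells (4.26 to 30.6), and no UMI was found in 14 control cells (up to 26.3 CPM). A Sox2 UMI was found in 23.2% and 15.4% of double-high cells, 0.606% and 0.300% of AT2 cells and 0.548% and 1.39% of endothelial cells. Among cells with at least 10% Sftpc, Sox2 was at 0.965 CPM with 0.5 to under 1% Scgb1a1 and at 19.2 CPM with 1 to under 2% in the tumor-bearing library, and at 1.99 and 18.5 CPM in the control library. Without Sftpc and Scgb1a1 in the totals Sox2 was at 36.5 CPM in double-high, 1.06 CPM in AT2 and 66.3 CPM in club cells of the tumor-bearing library. Ciliated cells also carried it, at 133 and 79.6 CPM. Of the 15 lung lineage transcription factors measured in each library, Sox2 among them, none was called against AT2 cells. Nkx2-1, which specifies lung epithelium, stood at 151.4 and 152.4 CPM in double-high cells, against 140.1 and 152.3 CPM in AT2 cells.

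Cd24a (chromosome 10, 43578284 to 43584265, plus strand), a surface glycoprotein gene used to sort lung epithelial progenitors, was the gene called above both AT2 and club cells in both libraries. It stood at 237.9 CPM in tumor-bearing double-high cells, against 102.7 CPM in AT2 and 115.9 CPM in club cells, and at 312.7 CPM in control double-high cells, against 140.9 CPM in AT2 and 117.8 CPM in club cells. The folds over AT2 cells were 2.32 (2.03 to 2.63) and 2.22 (1.963 to 2.50), and 74 of 82 and 96 of 117 double-high cells had a UMI, against 48.4% and 53.0% of AT2 cells. Cd24a was lower in the range with the most Scgb1a1. It stood at 358 CPM with 3 to under 5%, 226.7 CPM with 5 to under 10% and 107.5 CPM with 10% or more in the tumor-bearing library, and at 330.5, 342.7 and 199.9 CPM in the same ranges of the control library. The excess over club cells was not called once Sftpc and Scgb1a1 were left out of the totals: Cd24a then stood at 352.8 CPM in double-high and 299.5 CPM in club cells of the tumor-bearing library (fold 1.18, 1.01 to 1.36) and at 456 and 287.2 CPM in those of the control library (fold 1.59, 1.26 to 2.01). Ciliated cells had the highest Cd24a, at 1402 and 1437 CPM. The summed ciliated list stood at 420.8 CPM in double-high and 378.8 CPM in AT2 cells of the tumor-bearing library and at 301.5 and 432.5 CPM in those of the control library, and its part in the Cd24a level was not tested. Of the 6 surface genes listed for bronchioalveolar stem cells, Cd24a among them, 3 were measured, and 2 lay above and 1 below their AT2 level in both libraries. The gene below was Epcam, an epithelial adhesion molecule, at 171 and 147 CPM in double-high cells, against 184 and 157 CPM in AT2 cells, and it was not called. Ly6a (Sca-1) stood at 84.5 CPM in tumor-bearing double-high cells, against 58.1 CPM in AT2 cells, and was not called. Control Ly6a stood at 94.1 CPM in double-high cells, against 25.5 CPM in AT2 cells, and was called. Cd34, named after its values were seen, had 0 UMIs in all 82 and all 117 double-high cells. A fixed allowance for a count of 0, not the exact interval, puts this at up to 3 UMIs in each library.

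Of 22 genes in the AT2 identity list none was called higher and 1 lower in each library, where 1.13% and 1.33% of all genes were called lower. Their median log2 ratios were -0.34 and -0.26, against -0.16 and -0.17 over all genes. Sftpb stood at 13227 and 14728 CPM in double-high cells, against 15640 and 15356 CPM in AT2 cells, and the lamellar-body lipid transporter Abca3 at 288 and 323 CPM, against 365 and 361 CPM. Lamp3, a lysosomal membrane protein of lamellar bodies, stood at 346 and 345 CPM, against 586 and 542 CPM. The gene called lower was Bex2, at 156 CPM in tumor-bearing double-high cells, against 343 CPM in AT2 cells, and at 66.1 CPM in control double-high cells, against 196.7 CPM in AT2 cells. Bex4, of the same family and named after its values were seen, stood at 200.6 and 163.6 CPM in double-high cells, against 449.7 and 373.5 CPM in AT2 cells, and was called in both libraries. Of the 13 and 14 measured genes for surfactant export and lamellar bodies none was called, with medians of -0.29 and -0.18. The antibacterial enzyme Lyz2 lay above its AT2 level in the lower ranges of Scgb1a1. It stood at 51484 CPM in tumor-bearing and 53655 CPM in control cells with 3 to under 5%, against 33344 and 34924 CPM in all AT2 cells, and at 18728 and 21200 CPM in cells with 10% or more. The summed share of Lyz1 and Lyz2 had a median of 5.66% and 6.06% per cell with under 10% Scgb1a1, against 3.72% and 3.69% in AT2 cells. Lyz1 by itself rested on a minority of cells, with per-cell medians of 348 and 372 CPM in double-high cells, against 354 and 360 CPM in AT2 cells.

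MHC class II genes were lower in double-high than in AT2 cells. Of 6 measured genes of the list, 5 were called lower in tumor-bearing and 6 in control double-high cells, with median log2 ratios of -1.04 and -1.28. The sum over the list was 4724 CPM in tumor-bearing double-high cells, against 9612 CPM in AT2 cells, and 4602 CPM in control double-high cells, against 10277 CPM in AT2 cells. Cd74, the invariant chain that guides class II molecules, stood at 3262 and 3276 CPM in double-high cells, against 6596 and 7031 CPM in AT2 cells, and H2-Ab1, a beta chain, at 429 and 374 CPM, against 894 and 971 CPM. H2-Aa, an alpha chain (chromosome 17, 34282744 to 34287823, minus strand), stood at 636 and 587 CPM, against 1327 and 1439 CPM, and H2-Eb1, a beta chain (chromosome 17, 34305867 to 34316674, plus strand), at 244 and 227.5 CPM, against 494 and 551 CPM. The folds over AT2 cells lay between 0.479 and 0.495 in the tumor-bearing and between 0.385 and 0.466 in the control library for these 4 genes.

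The promoters of H2-Aa and H2-Eb1, which were among the class II genes called lower in both libraries, were chosen after their values were seen. Each is shown from 250 bases before to 50 bases after the start in the RefSeq table (GRCm38.p6, chr17:34287774-34288073 minus and chr17:34305617-34305916 plus). Capitals mark CTGATTGG, the letters of the Y box of class II promoters.
H2-Aa: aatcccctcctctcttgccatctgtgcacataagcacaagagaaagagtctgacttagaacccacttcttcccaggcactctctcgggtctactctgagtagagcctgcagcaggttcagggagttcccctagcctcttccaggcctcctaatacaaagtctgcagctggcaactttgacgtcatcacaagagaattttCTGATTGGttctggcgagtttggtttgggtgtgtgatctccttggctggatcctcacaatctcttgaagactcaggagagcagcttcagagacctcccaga
H2-Eb1: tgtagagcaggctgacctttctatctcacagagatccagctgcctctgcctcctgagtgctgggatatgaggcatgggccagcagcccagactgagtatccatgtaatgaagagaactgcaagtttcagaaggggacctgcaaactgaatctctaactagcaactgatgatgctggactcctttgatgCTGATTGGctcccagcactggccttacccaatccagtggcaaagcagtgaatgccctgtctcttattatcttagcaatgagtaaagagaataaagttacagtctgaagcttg
The motif begins 51 bases before the start of H2-Aa and 62 bases before that of H2-Eb1. It was found on either strand in 2 of 6 promoters of 5 genes of the class II list, which are the 2 shown, and in 1346 of 32851 promoters in the table (4.10%). These matches describe the letters only.

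Most double-high cells lay below the typical AT2 cell in class II genes. Per cell, the class II genes took from 0.0226% to 1.56% of UMIs in tumor-bearing double-high cells, with a median of 0.372%, against medians of 0.916% in AT2 and 0.0569% in club cells. In control double-high cells they took from 0% to 1.40%, with a median of 0.367%, against 0.963% in AT2 and 0.0890% in club cells. Of the tumor-bearing double-high cells 71 of 82 lay below the AT2 median (86.6%, 77.3 to 93.1%), and of the control cells 109 of 117 (93.2%, 87.0 to 97.0%). In the cells with under 10% Scgb1a1 54 of 62 and 95 of 103 did. Among all cells with at least 10% Sftpc, the class II sum was also lower in the ranges just below the double-high minimum than with under 0.5% Scgb1a1. In the tumor-bearing library it stood at 9889 CPM with under 0.5% Scgb1a1, 6841 CPM with 1 to under 2%, 4194 CPM with 2 to under 3% and 4338 CPM with 3 to under 5%. In the control library it stood at 10290, 6563, 6212 and 4983 CPM in the same ranges. Club cells had a class II sum of 862 and 1073 CPM, and the cells with 3 to under 5% were at 5.43 and 6.63 on the Scgb1a1 scale given above. With Sftpc and Scgb1a1 left out of the totals, Cd74 was not called in either library, at log2 ratios of -0.90 and -0.9985. In the tumor-bearing library H2-Aa, H2-Ab1 and H2-Eb1 then lay between -0.94 and -0.90 and were not called, and in the control library they lay between -1.27 and -1.17 and were called. H2-DMa, which helps load peptides and was named after its values were seen, was called at -1.23 and -1.30. All 8 measured MHC class I genes were below their AT2 level, with 0 called in tumor-bearing and 1 in control cells and median log2 ratios of -0.48 and -0.29.

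**Figure D4:**
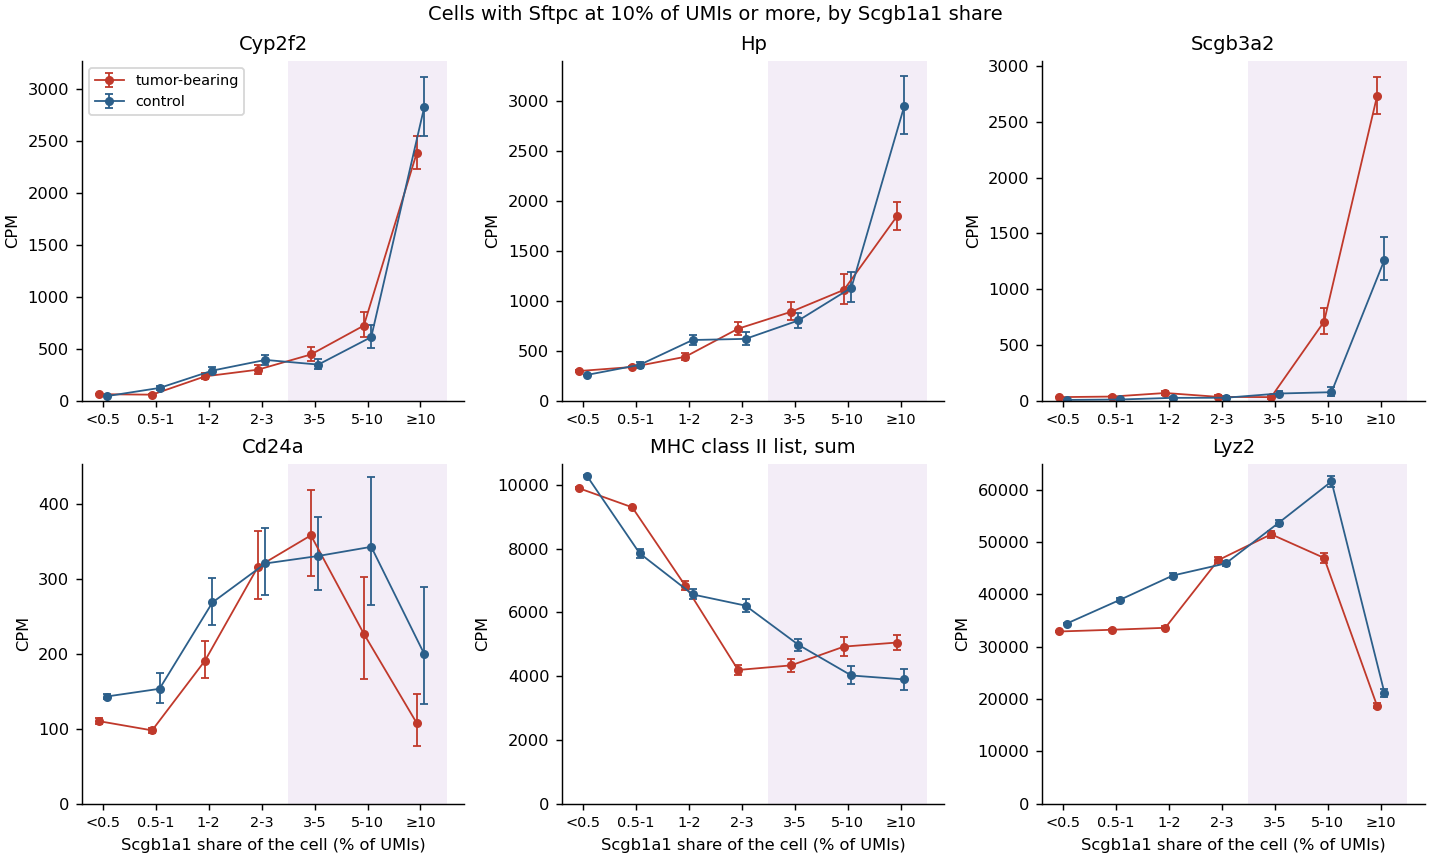
Summed levels (vertical axes, CPM, each from 0, with 95% Poisson intervals) of Cyp2f2, Hp, Scgb3a2, Cd24a, the MHC class II list and Lyz2 in cells with at least 10% Sftpc, by range of Scgb1a1 (horizontal axis, % of UMIs), for the tumor-bearing (red) and the control library (blue). The shaded ranges are double-high cells. Cyp2f2 and Hp are higher and the class II sum lower in each library already below the 3% minimum, and the ranges of 5% and over hold between 14 and 27 cells.

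Against club cells, most called genes were higher in double-high cells, a split that depended on the scaling. In the tumor-bearing library 479 of 1588 genes were called higher (30.2%) and 42 lower (2.64%), and in the control library 447 of 1601 higher (27.9%) and 45 lower (2.81%). With Sftpc and Scgb1a1 left out of the totals the tumor-bearing split was 198 higher and 174 lower, and the control split 157 and 194. With median-of-ratios scaling it was 183 and 98, and 168 and 111. The median log2 ratio of all genes was 0.81 and 0.72. All 22 AT2 identity genes were above their club level, 21 of them called in each library, and 14 of 15 and 14 of 14 measured club identity genes were below it, 10 and 8 of them called. A least-squares mix of the AT2 and club profiles over both lists gave the club profile a weight of 3.58% and -19.8%, against 23.7% and 15.1% over the club list alone and 49.3% and 44.8% over both lists in the cells with 10% or more Scgb1a1. A negative weight places the cells beyond the AT2 profile, away from club cells. Without Lyz1 and Lyz2, an alternative chosen after seeing the data, the weights over both lists were 21.9% and 14.1%.

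Between the libraries, double-high cells of the tumor-bearing library were higher in 22 of 1716 genes (1.28%) and lower in 11 (0.641%) than those of the control. AT2 cells differed in fewer genes, 6 of 1785 higher (0.336%) and 3 lower (0.168%). In cells with under 10% Scgb1a1, 22 of 1770 were higher (1.24%) and 14 lower (0.791%). The difference between the classes was not tested, and with a single library in each group the treatment cannot be told apart from any other difference between the libraries. Hopx, a transcription cofactor best known in alveolar type 1 cells, stood at 304 CPM in tumor-bearing double-high cells, against 111 CPM in control double-high cells, a fold of 2.74 (2.18 to 3.47). In AT2 cells Hopx stood at 142 and 137 CPM. It was found in 55 of 82 and 49 of 117 double-high cells, and the top cell held 22.98% and 10.1% of its UMIs. All 11 measured alveolar type 1 genes were above their control level in double-high cells, 2 of them called. Their median log2 ratio was 0.48, against -0.04 over all genes. In AT2 cells 8 of 10 were above their control level, none was called and the median was 0.07. Alveolar type 1 genes reached the mixed-cell level used above (0.905% and 0.859% of UMIs) in 3 of 82 tumor-bearing and 0 of 117 control double-high cells. The part of these 3 cells in the Hopx and list differences was not tested. Areg, a ligand of the epidermal growth factor receptor, stood at 106 CPM in 26 tumor-bearing cells, against 16.8 CPM in 12 control cells, and in AT2 cells at 129 and 70.7 CPM. Compared with AT2 cells of its own library, Areg was called lower in the control double-high cells and was not called in the tumor-bearing ones.

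Some of the other genes higher in the tumor-bearing library also lay above their control level in AT2 cells. Ifitm3, an interferon-induced membrane protein, stood at 127 CPM in tumor-bearing and 34.7 CPM in control double-high cells, and at 81.3 and 29.2 CPM in AT2 cells, and Ly6c1, a surface protein of endothelial and myeloid cells, at 52.1 and 14.6 CPM, with 62.6 and 21.4 CPM in AT2 cells. The summed endothelial list stood at 315 CPM in tumor-bearing and 48.2 CPM in control double-high cells, at 287 and 73.6 CPM in AT2 cells, and at 1035 and 189 CPM in empty droplets, and its part in these differences was not tested. Scgb3a2 stood at 1179 CPM in tumor-bearing and 255.5 CPM in control double-high cells, and its AT2 level differed likewise, at 34.8 and 7.56 CPM. The direction depended on the range of Scgb1a1. With 3 to under 5% Scgb3a2 stood at 32.3 CPM in tumor-bearing and 64.7 CPM in control cells, with overlapping intervals. With 5 to under 10% it stood at 709.5 and 76.7 CPM, and with 10% or more at 2730 and 1263 CPM. Retnla, Bpifa1, Cldn10, Cyr61 and Krtap17-1 were also called higher but were found in 10, 14, 26, 16 and 12 tumor-bearing cells, and Bpifa1 was at a log2 ratio of -0.28 in cells with under 10% Scgb1a1.

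Among genes lower in the tumor-bearing library, B2m, the light chain of MHC class I, stood at 324 CPM in tumor-bearing and 669 CPM in control double-high cells, and at 430 and 736 CPM in AT2 cells. The fatty-acid desaturase Scd1 stood at 250 and 527 CPM, with 391.8 and 588 CPM in AT2 cells, and Scd2 at 190 and 399 CPM, with 236.5 and 445 CPM in AT2 cells. Of 13 measured genes for fatty acid and cholesterol synthesis, 10 were below their control level and 2 were called, with a median log2 ratio of -0.35. Hdc, the enzyme that makes histamine, stood at 52.1 CPM in tumor-bearing and 142.3 CPM in control double-high cells, and at 42.7 and 35.8 CPM in AT2 cells. It was found in 29 of 82 and 42 of 117 double-high cells. Gkn3, a gastrokine, stood at 32.4 and 123 CPM, with 34.5 and 50.4 CPM in AT2 cells, and 1 control cell held 29.1% of its UMIs. Control Hdc and Gkn3 were above both AT2 and club cells, also without Sftpc and Scgb1a1 in the totals, where Hdc stood at 207.6 CPM in double-high, 48.6 CPM in AT2 and 8.45 CPM in club cells. With a Scgb1a1 minimum of 10% both were below AT2 cells, at log2 ratios of -1.27 for Hdc and -1.75 for Gkn3, and with a minimum of 5% Gkn3 was at -0.48. Ciliated cells had Hdc at 542 and 505 CPM. Rasl11a, Osgin1, Gadd45g, Elf3 and Apoc1 were the other genes named among those lower, at log2 ratios from -1.36 to -1.07. Of 6 measured MHC class II genes none was called between the libraries, with a median log2 ratio of 0.11.

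**Figure D5:**
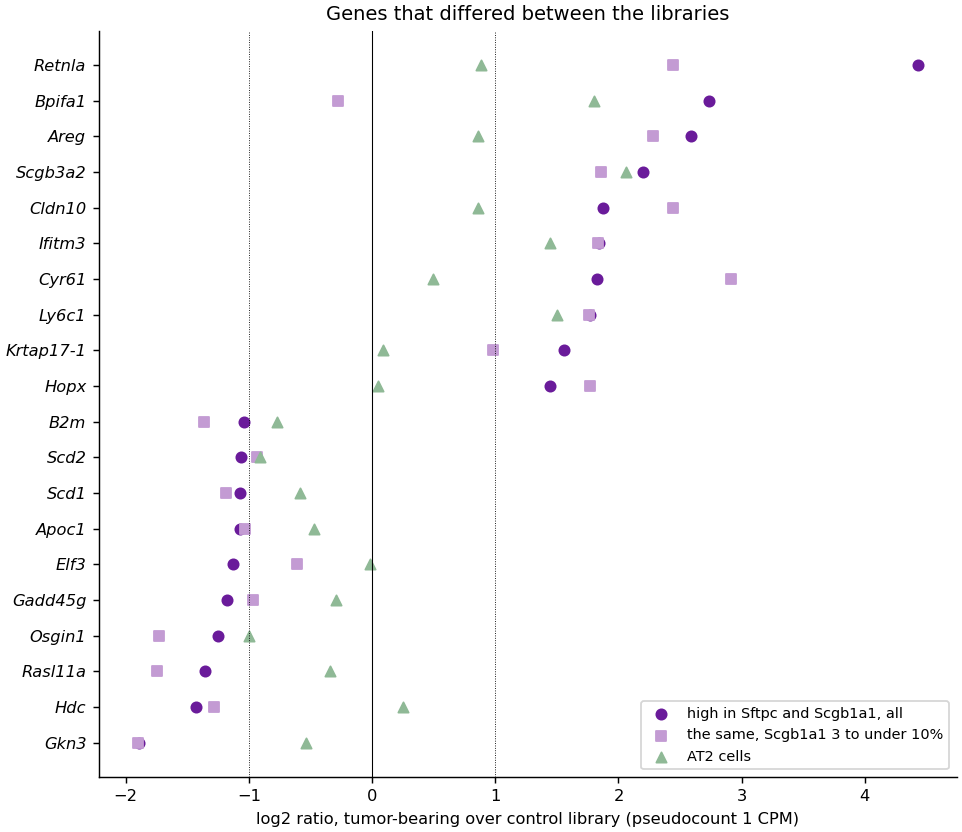
Log2 ratio of the tumor-bearing over the control library (horizontal axis, pseudocount of 1 CPM) for the 10 genes with the largest called difference in each direction, in all double-high cells, in those with under 10% Scgb1a1 and in AT2 cells. Hopx lies at 1.45 in double-high cells and at 0.05 in AT2 cells; dotted lines mark 2-fold.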

How the data were processed

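Lung cells sorted as CD45- SftpC+ were measured by droplet single-cell RNA sequencing in 1 tumor-bearing and 1 control library. Each library came as a matrix that the authors deposited, holding unnormalised UMI counts for 28692 genes in 737280 barcodes, empty droplets included (84448360 UMIs in the tumor-bearing library, 91498124 in the control). Reads were processed with Cell Ranger 2.1.0 per the series' design text, and the submitters' processing notes name mm10, Seurat and R 3.5.3. No deposited cell annotation was used here, so classes were rebuilt from the 2 genes of the rule. The rule, the members and the gene lists were chosen with earlier results of these data known.

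For each class in each library, counts were added up and divided by the class total to give CPM. Ratios used a pseudocount of 1 CPM, and intervals are exact Poisson or Clopper-Pearson 95% intervals, which cover counting error only. Values compare 2 libraries, which may also differ for technical reasons. Scripts used Python 3.11.15, scipy 1.17.1 and scanpy 1.11.5 and were tested on simulated data. The automatic threshold of Scrublet (scanpy) marked 0 tumor-bearing and 1 control cells and had not worked, so the 533 and 966 highest scores, 0.8% per 1000 cells, were taken. Doublets were kept in the main values and removed in an alternative. Thinned shares of large classes used up to 1000 cells. The alternatives changed the cell filters, the rule's thresholds, the scaling, the CPM minimum, the pseudocount, doublet removal, thinning, free-RNA subtraction and the genes behind the club weight. Free RNA was estimated from 554687 and 485851 empty droplets.

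Lists were summarised over genes of at least 20 CPM in either class. Genes were named if they were among the 10 furthest above, or the 10 furthest below, both AT2 and club cells in both libraries, among the 10 largest ratios per direction between libraries, among the 4 highest of a list, or in the AT2, club or proximal airway lists; others are said to be named after their values were seen, as are the promoters. Positions come from GENCODE mouse release 21 (mm10), which held 28339 of 28692 gene IDs (98.8%), and promoters from the RefSeq table.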

Additional observations from a re-analysis of the deposited data

How the results depend on the processing

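The share of double-high cells, 1.004% for the tumor-bearing library and 1.065% for the control, followed the Scgb1a1 minimum: it was 1.764% and 1.839% at 2%, 0.4409% and 0.3732% at 5%, and 0.2449% and 0.1274% at 10%. With an Sftpc minimum of 5% the tumor-bearing share was 1.359%. Under the other 9 and 10 alternatives it moved by less than its counting interval. Counts of genes called against AT2 cells are given as higher and lower, from 25 and 20 for tumor-bearing cells and 18 and 24 for control cells. A minimum of 20 CPM gave 46 and 58, and 40 and 92. No minimum gave 213 and 171, and 155 and 236. A Scgb1a1 minimum of 5% gave 39 higher for tumor-bearing cells, and 30 and 90 for control cells. A Scgb1a1 minimum of 10% gave 41 and 67, and 66 and 156. Genes lower numbered 9 and 15 with median-of-ratios scaling, 12 and 15 with a pseudocount of 10 CPM, and 55 and 48 after thinning. Genes higher numbered 16 in tumor-bearing cells with under 10% Scgb1a1, and 29 in control cells without Sftpc and Scgb1a1 in the totals. Against club cells, from 479 and 42 and from 447 and 45, the totals without those genes gave 198 and 174, and 157 and 194, and median-of-ratios scaling gave 183 and 98, and 168 and 111. A minimum of 20 CPM gave 1267 and 72, and 800 and 81, and no minimum gave 2120 and 114, and 881 and 98. A Scgb1a1 minimum of 10% gave 24 lower for tumor-bearing cells, and 232 higher and 13 lower for control cells, for which thinning gave 203 higher and subtraction of free RNA 678. Between the libraries, from 22 and 11, the totals without those genes gave 37 and 17, a minimum of 20 CPM 51 and 26, and no minimum 83 and 34. A pseudocount of 10 CPM gave 14 higher, a Scgb1a1 minimum of 5% gave 39 higher and of 10% 23 lower, thinning gave 7 lower, and removal of cells above 2 times the AT2 median UMIs 19 lower. The club weight, 3.58% and -19.8%, was 2.489% and -21.69% over the AT2 list, 23.72% and 15.12% over the club list, 10.21% and -3.029% over all genes of at least 50 CPM, and 46.45% and 33.7% on a log2 scale. It was 27.89% and -5.674% at a Scgb1a1 minimum of 5%, 49.33% and 44.83% at 10%, -14.81% and -28.45% without high-UMI cells, -23.85% and -31.82% with under 10% Scgb1a1, and 21.9% and 14.05% without Lyz1 and Lyz2. The alternatives with under 10% Scgb1a1 only and without Lyz1 and Lyz2 were chosen after seeing the data. With empty droplets of more than 100 and up to 500 UMIs, free RNA by the red cell genes came to 0.0703% and 0.01828% Scgb1a1, against 0.2701% and 0.04711% with emptier droplets. Of 1440 values of single named genes under these alternatives, 1270 kept their call or stayed uncalled, 147 kept the direction without the call, and 15 gained a call. Changes of direction were counted only for genes called in the main values. Uncalled genes could change direction uncounted. Lyz2 ranged from -0.83 to 0.59 against tumor-bearing AT2 cells and from -0.72 to 0.67 against control AT2 cells. Among called genes, 8 values changed direction. At a Scgb1a1 minimum of 10% Cd24a was at -0.11 against club cells of the tumor-bearing library, Gkn3 at -1.75 and Hdc at -1.27 against control AT2 cells, and between the libraries Cyr61 was at -0.34, Gkn3 at 0.69 and Hdc at 0.83. At a minimum of 5% control Gkn3 was at -0.48 against AT2 cells, and Bpifa1 was at -0.28 between the libraries with under 10% Scgb1a1. Where a construction does not show the cause, as a lower minimum that admits more genes does, the cause was not tested. No paired analysis was possible because each group has 1 library, and for the same reason no replicate could be left out. Summed counts of 1017189 UMIs from 82 cells and 892276 UMIs from 117 cells limit what is detectable in double-high cells, where 50 CPM are about 50 UMIs.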

Other observations

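Defence genes of double-high cells moved in both directions against AT2 cells. Of 10 measured genes of the acute phase and antimicrobial list, 2 were called higher for the tumor-bearing library and 3 for the control, and 1 was called lower in each. Those called higher in both libraries were Hp and Bpifa1, already described among the airway genes, and Bpifa1 rested on few cells. The gene called lower was Slpi, a protease inhibitor named after its values were seen, at 50.1 CPM in tumor-bearing double-high cells, against 109 CPM in AT2 cells, and at 32.5 CPM in control double-high cells, against 108 CPM in AT2 cells. Without Sftpc and Scgb1a1 in the totals it was not called in the tumor-bearing library. Lcn2, which binds bacterial siderophores, was not called, at 474.8 and 439.3 CPM in double-high cells, against 823.9 and 610.1 CPM in AT2 cells. Of the Notch list, 2 and 3 of 12 genes were measured against AT2 cells and none was called. Hes1, a transcriptional repressor and Notch target, stood at 180.9 and 232 CPM in double-high cells, against 116 and 167.6 CPM in AT2 cells and 278 and 467.8 CPM in club cells. Of 9 cycling genes found in the matrix only Stmn1, which binds tubulin, was measured, at 78.7 and 91.9 CPM in double-high cells, against 82.3 and 60.5 CPM in AT2 cells. Of the list of genes for the passage of AT2 to alveolar type 1 cells, none of 6 measured genes was called in the tumor-bearing library, and 1 of 7 was called lower among control cells.

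Between the libraries, 15 of 17 immediate early genes were above their control level in double-high cells and 16 of 17 in AT2 cells, with none called in either class and median log2 ratios of 0.34 and 0.26. Fos, a subunit of the AP-1 transcription factor, stood at 834.7 CPM in tumor-bearing and 661.2 CPM in control double-high cells. Of the genes for fatty acid oxidation, 9 of 11 were above their control level in double-high cells with none called and a median of 0.35, and 9 of 12 in AT2 cells with 1 called and a median of 0.54. Acadl, an acyl-CoA dehydrogenase, stood at 80.6 CPM in tumor-bearing and 49.3 CPM in control double-high cells, and at 99 and 52.9 CPM in AT2 cells.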
